A study of Hyacinthus orientalis with 189 samples.

Results

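The perianth tube was compared with the perianth lobes in coloured flower buds (Stage C) of hyacinth, Hyacinthus orientalis. All 63 Stage C libraries were used, 1 of the 3 stages of the series, each with as many libraries. They came from 21 flowers, 3 in each of 7 cultivars: ‘Jan Bos’ (red), ‘Pink Pearl’ (pink), ‘Gipsy Queen’ (orange), ‘City of Haarlem’ (yellow), ‘China Pink’ (pinkish white), ‘Delft Blue’ (blue) and ‘Peter Stuyvesant’ (dark purple). Each flower gave 1 library of outer lobes, 1 of inner lobes and 1 of tube, after stamens and pistil had been taken out with forceps. All plants, in every group alike, grew outdoors from imported bulbs that had been dipped in the fungicide tetrachlorophthalonitrile and chilled, and no treatment differed between groups. The 21 tubes were set against the lobes of the same flowers, and the lobe value of a flower is the sum of the counts, or the mean FPKM, of its outer and inner lobes. FPKM are fragments scaled to the length of the unigene in kilobases and to the library size. A unigene is the longest transcript of a cluster in the authors' assembly, and it is named here by its best match in Swiss-Prot. A match names a related protein and not a proven function, and unigenes with the same name can be alleles or near-identical copies that share reads, so their separate values are uncertain.

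In hyacinth the outer and inner tepals are joined below into a tube and spread above as free lobes. Petal-like organs owe their identity to MADS-box factors of the B class, while the C class, with AGAMOUS, specifies stamens and carpels. Red and blue flower colours come mainly from anthocyanins, which are made from phenylalanine through chalcones, dihydroflavonols and leucoanthocyanidins. Green buds carry chloroplasts, whose chlorophyll is broken down as petals open. The outer face of such organs is an epidermis with a cuticle of wax and cutin.

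Total counts ranged from 12704838 to 16796890 per tube library and from 12661248 to 20175882 per lobe library. A tube score was taken for each library, as the mean log2(FPKM + 1) of unigenes higher in tube minus that of unigenes lower in tube in the fit without ‘City of Haarlem’ flower 3. Because the other flowers chose these unigenes, their scores are a description only. The other 20 tubes scored 0.04 to 0.71, with outer lobes at -1.33 to -0.30 and inner lobes at -1.31 to -0.18. In ‘City of Haarlem’ flower 3, the library labelled tube scored -0.78, the library labelled outer lobes 0.31 and inner lobes -0.62. The library labelled tube thus lay in the range of the lobes and the one labelled outer lobes in that of the tubes, while inner lobes lay in their own range. Whether the pair was exchanged was not tested. All were kept under their labels in the main fit, and the main counts, the list counts that change and most named fold changes are also given without this flower. Ranges of FPKM below cover the other 20 flowers as lowest, median and highest value.

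**Figure D1:**
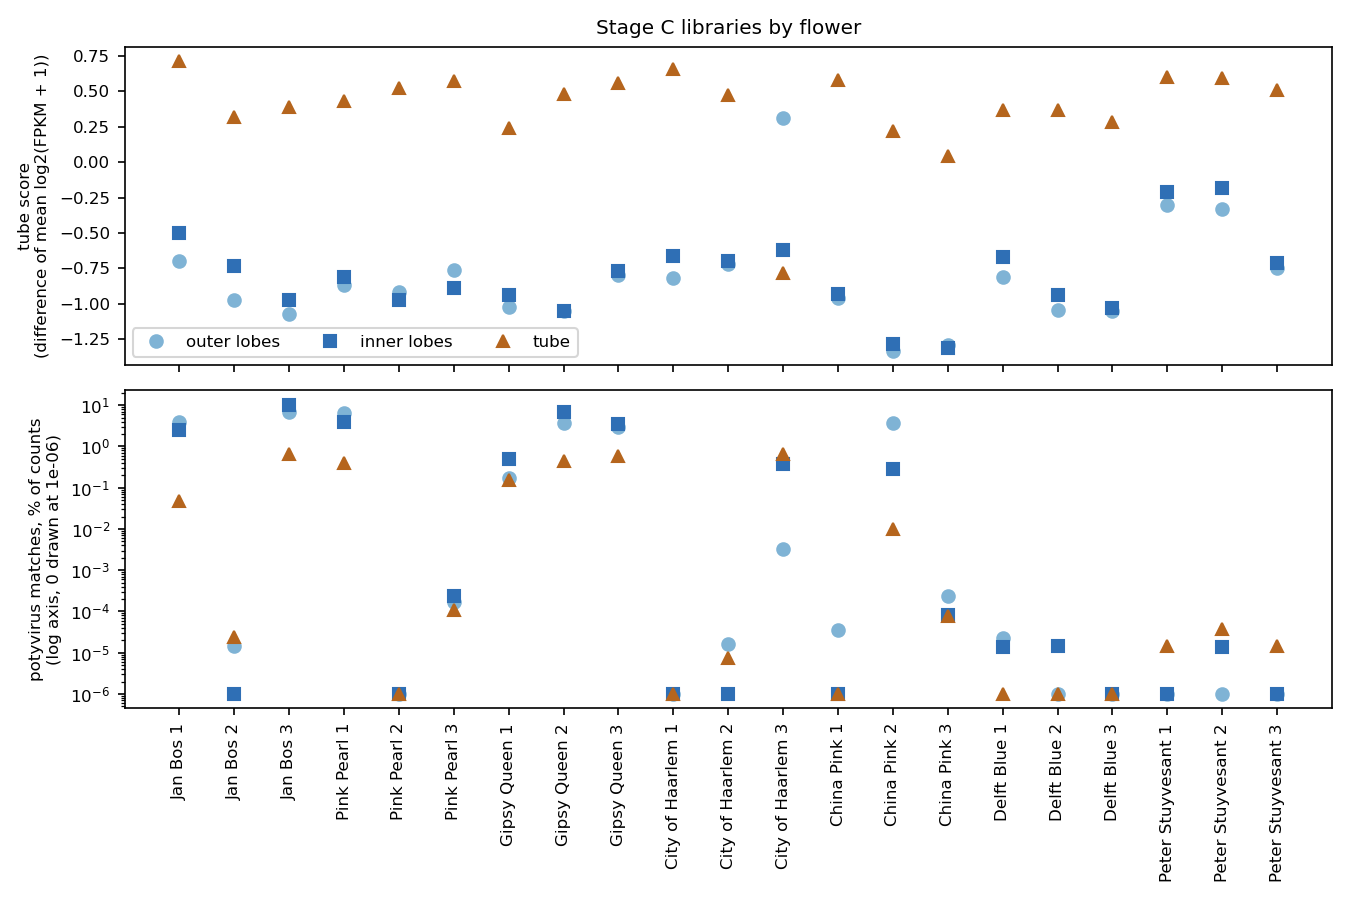
Stage C libraries in order of cultivar and flower. The upper panel shows the tube score, a difference of mean log2(FPKM + 1), and the lower panel the potyvirus matches as a percent of counts on a log axis, with triangles for tube, circles for outer and squares for inner lobes. In ‘City of Haarlem’ flower 3 the library labelled tube lies among the lobes at -0.78 and the one labelled outer lobes at 0.31.

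Of 113327 unigenes tested over 21 flowers, 4131 were higher in the tube, 3.65% of those tested, and 3937 were lower, 3.47%. A call needed an adjusted p under 0.05 (edgeR quasi-likelihood test with the flower as block, Benjamini-Hochberg) and a log2 fold change of tube over lobes beyond 1 in size. Without ‘City of Haarlem’ flower 3, 4621 were higher (4.11% of 112407 tested) and 4775 lower (4.25%). Of the 4131 higher unigenes, 4062 were also called without that flower, and of the 3937 lower ones 3904 were. The median log2 fold change over all unigenes tested was -0.03 in both fits. The outer and inner lobes were far closer to each other: 60 of 113327 unigenes were higher and 286 lower in outer than in inner lobes. These counts are from the fit with the lobes as separate libraries. It kept ‘City of Haarlem’ flower 3, whose library labelled outer lobes scored in the range of the tubes. Without the flower as block, 2469 unigenes were higher and 1602 lower in the tube. Higher unigenes were 51.2% of the calls, against 63.1% with DESeq2, 66.4% with limma-voom, 69.3% with limma on log2(FPKM + 1), 61.8% against outer lobes only and 38.9% with no filter on low counts. The p-values measure the spread of the difference between tube and lobes over these flowers, pooled over the cultivars. All 159 unigenes chosen by the naming rule that were called over 21 flowers were called without ‘City of Haarlem’ flower 3 too. The rule drew on both fits, which share all other flowers, so this was largely set by the choice and is a description only. Of the 4131 higher unigenes 40 had the same direction in all 21 flowers, and of the 3937 lower ones 73. Unigenes named for the smallest p of the tube difference had to keep the same direction in every flower of their fit. Where such a unigene is given below as higher or lower in all 21 flowers, this restates the rule. Below, the log2 fold change over 21 flowers comes first, and the one without ‘City of Haarlem’ flower 3 second.

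**Figure D2:**
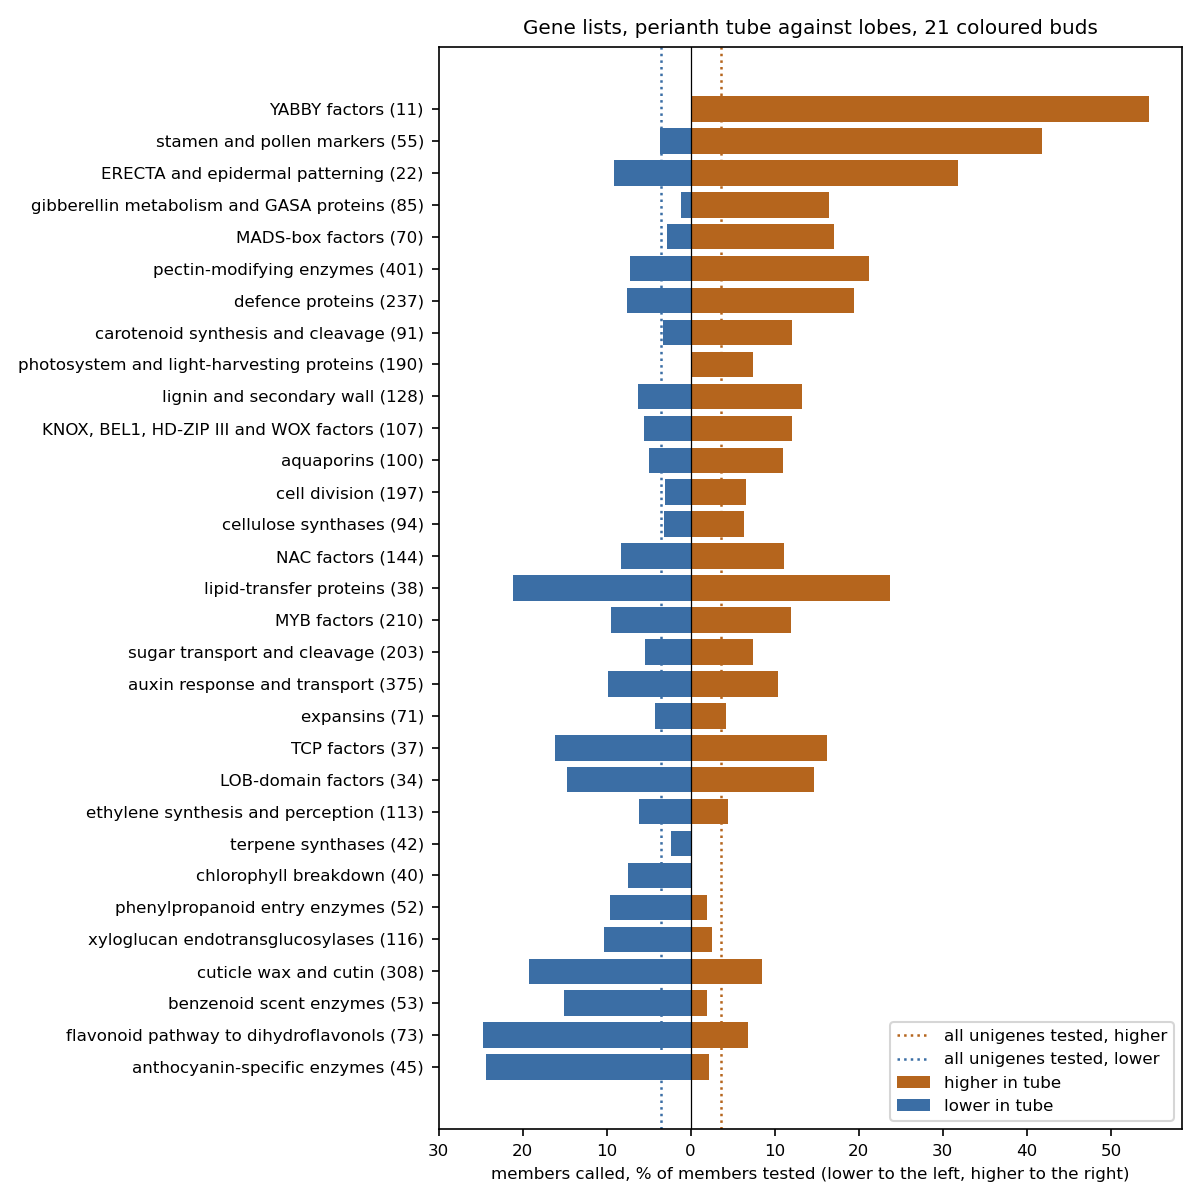
Members called higher (right, brown) or lower (left, blue) in the tube, in percent of the members tested, for gene lists with the number tested in brackets. Dotted lines mark the 3.65% higher and 3.47% lower of all unigenes tested. YABBY factors reached 54.5% higher, and the anthocyanin-specific enzymes 24.4% lower.

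The factors with the clearest tube pattern belonged to developmental families. Class I KNOX factors are homeobox factors that keep shoot meristem cells undifferentiated in Arabidopsis and maize. Their matches were grouped after the values were seen, so the counts of this class are a description only. Of 15 class I KNOX matches tested, 9 were higher in the tube and 0 lower, with a median log2 fold change of 1.63. Their summed level was 156, 212 and 330 FPKM in the tubes and 16.4, 37.1 and 64.7 FPKM in the lobes, and it was higher in the tube of 20 of 20 flowers. KNOX3 (Cluster-20417.172509) was at 8.01, 23.2 and 91.2 FPKM in the tubes and at 0, 0.0625 and 1.34 FPKM in the lobes. The groups did not overlap, and in ‘City of Haarlem’ flower 3 the library labelled tube held 0 FPKM and the lobes 8.05 FPKM. Its log2 fold change was 5.18 (adjusted p = 1.41e-12) and 6.25 ± 0.201 (SE, n = 20, adjusted p = 1.71e-30). Knotted-1 (Cluster-20417.286052) stood at 20.4, 31.2 and 67.9 FPKM in the tubes against 0, 0.223 and 1.14 FPKM in the lobes, with log2 fold changes of 6.08 and 6.52. Rough sheath 1 (Cluster-20417.178979), a maize member of the class, stood at 5.88, 9.53 and 21.3 FPKM against 0, 0.0875 and 0.42 FPKM. The knotted-1-like 10 match (Cluster-20417.257786), the most abundant called member of the homeobox list, ran from 41.1 to 70.3 FPKM in the tubes and from 6.17 to 23.0 FPKM in the lobes, again without overlap. In the whole list of KNOX, BEL1, HD-ZIP III and WOX factors, 13 of 107 were higher and 6 lower (14 and 6 without ‘City of Haarlem’ flower 3). The median log2 fold change of this list was 0.09. The lower ones included knotted-1-like 3 (Cluster-20417.282795) at 0.51, 5.87 and 15.1 FPKM in tubes and 3.88, 19.3 and 46.1 FPKM in lobes.

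MADS-box factors split by class. Matches of the C class were higher in the tube for 5 of 7 tested, with a summed level at a median of 62.3 FPKM in the tubes (lowest 24.2 FPKM) and of 4.02 FPKM in the lobes (highest 9.74 FPKM). The AGAMOUS match (Cluster-20417.178664) was at 8.91, 22.1 and 50.4 FPKM in the tubes and 0.76, 2.55 and 5.50 FPKM in the lobes, so the groups did not overlap. Its log2 fold change was 2.91 and 3.09 ± 0.145 (SE, n = 20, adjusted p = 8.82e-16). MADS1 of grapevine (Cluster-20417.209235), which is AGAMOUS-like by name, was at 9.68, 30.7 and 54.8 FPKM in the tubes and at 0, 0.108 and 0.475 FPKM in the lobes, with log2 fold changes of 6.56 and 7.52. B-class matches to PISTILLATA or GLOBOSA were abundant in both parts, at 1230, 1610 and 2840 FPKM summed in tubes and 1170, 2060 and 4100 FPKM in lobes, and 1 of 7 was higher and 0 lower. Matches to APETALA3 or DEFICIENS summed to 3.71, 7.01 and 113 FPKM in tubes and 1.92, 21.6 and 339 FPKM in lobes, and 1 of 4 was lower. That member, MADS-box factor 16 (Cluster-20417.237862), an APETALA3 relative in rice, had log2 fold changes of -1.73 in both fits and was lower in the tube of 16 of 20 flowers. SOC1 (Cluster-20417.262386), a flowering-time factor in Arabidopsis, was at 0.45, 2.85 and 9.89 FPKM in the tubes and 1.90, 7.35 and 20.3 FPKM in the lobes. The whole MADS-box list counted 12 higher and 2 lower of 70, with a median of -0.01.

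YABBY factors, which mark the lower side of lateral organs in Arabidopsis, had the largest share of higher members among the lists drawn: 6 of 11 were higher and 0 lower, with a median log2 fold change of 1.27 against -0.03 over all unigenes. YABBY 2 (Cluster-20417.252290) carried most of the signal, at 184, 269 and 433 FPKM in the tubes and 48.1, 97.1 and 154 FPKM in the lobes. Its groups did not overlap, and the log2 fold change was 1.27 and 1.37 ± 0.0716 (SE, n = 20, adjusted p = 9.33e-15). A further YABBY 2 match (Cluster-20417.273436) stood at 11.6, 32.5 and 82.6 FPKM against 1.03, 3.21 and 12.3 FPKM, with log2 fold changes of 3.05 and 3.23. YABBY 1 (Cluster-20417.269329) was at 0.54, 7.42 and 31.6 FPKM in the tubes and 0, 0.828 and 4.15 FPKM in the lobes.

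TCP factors, regulators of cell division in leaves and petals, went each way, with 6 higher and 6 lower of 37 (6 and 7 without ‘City of Haarlem’ flower 3). TCP21 (Cluster-20417.240651) was at 0.82, 6.64 and 16.4 FPKM in the tubes and 0.085, 1.28 and 8.41 FPKM in the lobes, and higher in the tube of 20 of 20 flowers. Among 210 MYB factors, 25 were higher and 20 lower (27 and 22 without ‘City of Haarlem’ flower 3). MYB60 (Cluster-20417.215359), a guard cell factor in Arabidopsis, was at 7.21, 33.4 and 87.8 FPKM in the tubes and 1.02, 6.97 and 13 FPKM in the lobes, with log2 fold changes of 1.92 and 2.06. MYB3 (Cluster-20417.195293), a repressor of phenylpropanoid genes in Arabidopsis, went the other way at 0.32, 9.55 and 60.4 FPKM in tubes and 3.70, 22.4 and 244 FPKM in lobes, lower in the tube of every one of the 21 flowers. The MYB-like factor 4 match of petunia (Cluster-20417.240416) was also lower in all 21 flowers, at 1.79, 57.4 and 310 FPKM against 24.2, 130 and 1150 FPKM, with log2 fold changes of -1.51 and -1.54. NAC factors numbered 16 higher and 12 lower of 144 (16 and 13 without ‘City of Haarlem’ flower 3), and LOB-domain factors 5 higher and 5 lower of 34 (7 and 5). WRKY factor 4 (Cluster-20417.232247) was at 11.8, 23.8 and 40.9 FPKM in the tubes and 28.5, 59.6 and 115 FPKM in the lobes.

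**Figure D3:**
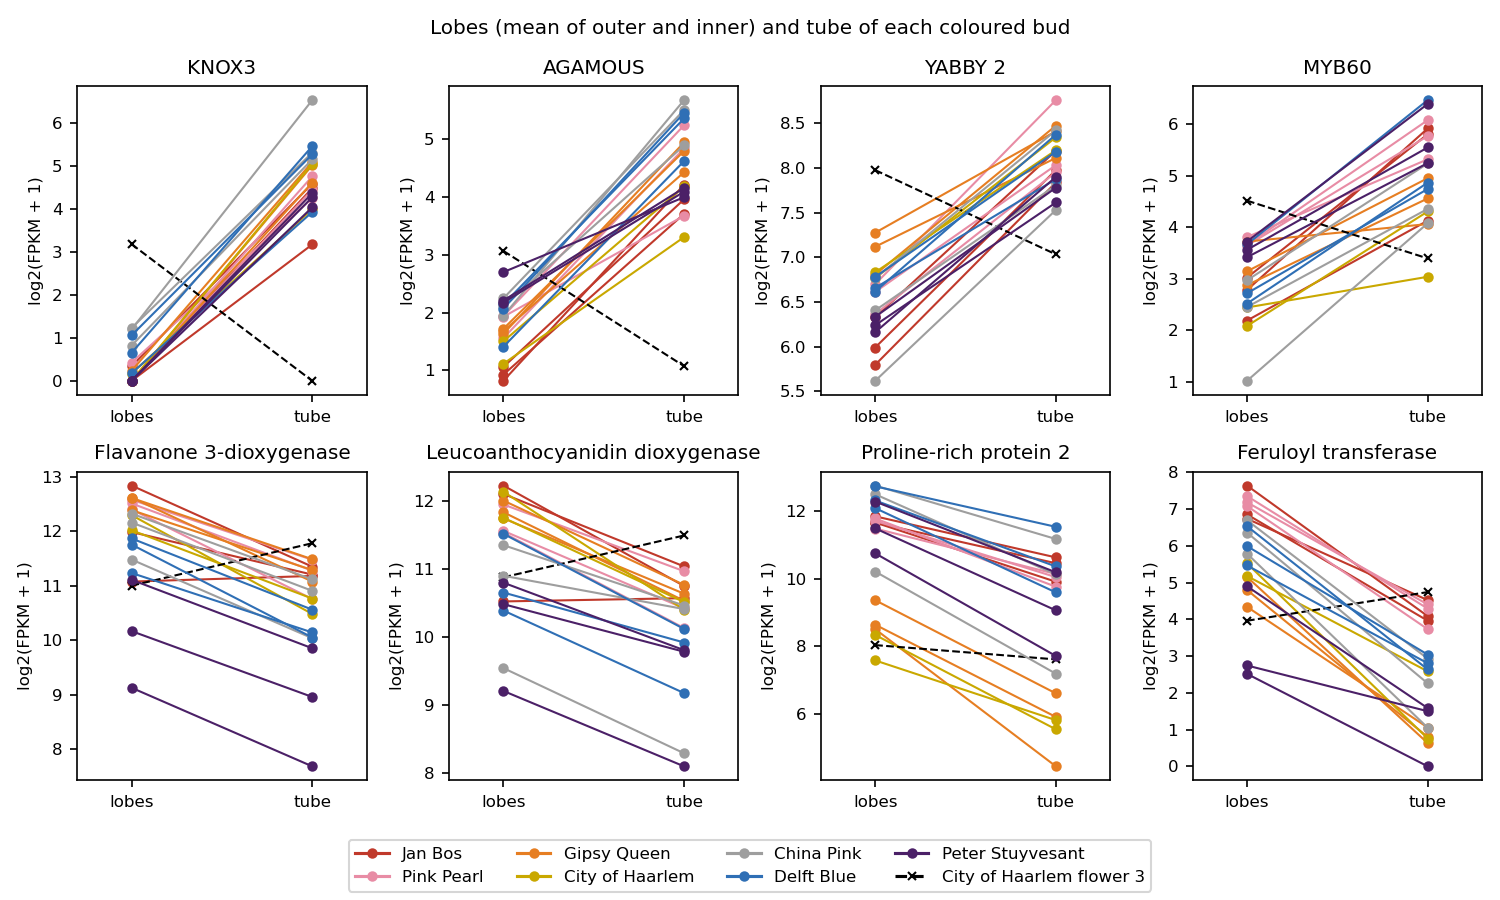
log2(FPKM + 1) of 8 unigenes in the lobes (mean of outer and inner) and the tube of each flower, with 1 line per flower coloured by cultivar and ‘City of Haarlem’ flower 3 dashed in black with crosses. The upper row holds unigenes called higher in the tube and the lower row unigenes called lower. The dashed line runs against the other lines in every panel except that of proline-rich protein 2, where the library labelled tube is at 195 FPKM and the lobes at 262 FPKM.

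Enzymes of anthocyanin synthesis were lower in the tube. Of 45 anthocyanin-specific enzymes tested, 11 were lower and 1 higher, and the median log2 fold change was -0.54. Without ‘City of Haarlem’ flower 3, 15 were lower and 1 higher. The summed level of this list was 1610, 7720 and 14200 FPKM in the tubes and 3260, 15800 and 33500 FPKM in the lobes, and 1 of 20 flowers had the higher sum in its tube. Leucoanthocyanidin dioxygenase, which makes anthocyanidins, had 2 abundant called unigenes. The first (Cluster-20417.239592) was at 273, 1370 and 2100 FPKM in the tubes and 590, 2950 and 4790 FPKM in the lobes. The groups overlapped, and the log2 fold change was -1.27 (adjusted p = 3.00e-09) and -1.36 ± 0.0845 (SE, n = 20, adjusted p = 3.83e-13). The other (Cluster-20417.239040) had log2 fold changes of -1.10 and -1.18. The higher member, a malonyltransferase match (Cluster-20417.176107), was low throughout, at 0, 1.26 and 10.5 FPKM in tubes and 0, 0.285 and 2.25 FPKM in lobes.

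Steps before the dihydroflavonols showed the same direction, with 18 lower and 5 higher of 73 (21 and 5 without ‘City of Haarlem’ flower 3) and a median of -0.53. Their summed level was 4060, 11300 and 18400 FPKM in the tubes and 9720, 20200 and 56500 FPKM in the lobes, and 0 of 20 flowers had the higher sum in the tube. Flavanone 3-dioxygenase, which makes dihydroflavonols, led the list. Its most abundant unigene (Cluster-20417.239532) was at 205, 1830 and 2870 FPKM in the tubes and 559, 4370 and 7330 FPKM in the lobes, with log2 fold changes of -1.34 and -1.43 ± 0.0831 (SE, n = 20, adjusted p = 8.51e-14). Its other named unigenes had -1.32 (Cluster-20417.242933) and -1.34 (Cluster-20417.232006) over 21 flowers. In ‘City of Haarlem’ flower 3 the library labelled tube held 3520 FPKM of the most abundant unigene and the lobes 2050 FPKM. A flavonoid 3'-monooxygenase match (Cluster-20417.257769), an enzyme that adds a hydroxyl group to the B ring, went the other way at 1.19, 19.1 and 56.9 FPKM in tubes and a median of 6.42 FPKM in lobes (lowest 0.43 FPKM), with log2 fold changes of 1.04 and 1.14. Chalcone synthase 17 (Cluster-20417.114964) was also higher, but it was at most 16.9 FPKM and higher in the tube of only 11 of 20 flowers.

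Of 9 flavonol enzymes, 4 were lower and 0 higher, and UGT89B1 (Cluster-20417.245387), a flavonol glucosyltransferase in Arabidopsis, was at 0.55, 3.24 and 53.2 FPKM in tubes and 1.54, 7.01 and 74.5 FPKM in lobes. Of 52 phenylpropanoid entry enzymes, 5 were lower and 1 higher (6 and 1 without ‘City of Haarlem’ flower 3). Cinnamate 4-monooxygenase (Cluster-20417.238150), at the head of this pathway, was at 10.1, 41.3 and 68.9 FPKM in the tubes and 22.4, 72.2 and 283 FPKM in the lobes. The log2 fold change was -1.22 over 21 flowers, and -0.97 in the 13 flowers without potyvirus, where it was no longer called. Those 13 flowers include none of ‘Gipsy Queen’ and few of ‘Jan Bos’, where the difference was largest, at -2.51 and -2.02. It varied among cultivars by the F test of the cultivar term (adjusted p = 0.0157, and 0.00101 without ‘City of Haarlem’ flower 3). A link of the lost call with the virus was not tested.

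Cuticle genes were lower in the tube on balance, with 59 lower and 26 higher of 308 (67 and 28 without ‘City of Haarlem’ flower 3) and a median of -0.31. The summed level was 13600, 18400 and 25800 FPKM in the tubes and 22600, 30100 and 46000 FPKM in the lobes, and in 0 of 20 flowers was the tube higher. 3-ketoacyl-CoA synthase 6 (Cluster-20417.254875), which elongates wax precursors in Arabidopsis, was at 24.1, 39.4 and 57 FPKM in the tubes and 44.9, 84.9 and 136 FPKM in the lobes. Long chain acyl-CoA synthetase 4 (Cluster-20417.254010) was at 42.5, 56.5 and 106 FPKM against 90.7, 133 and 275 FPKM, with log2 fold changes of -1.33 and -1.42 ± 0.0545 (SE, n = 20, adjusted p = 7.93e-18). Among the named unigenes of this kind that were lower, the largest difference was that of an omega-hydroxypalmitate O-feruloyl transferase match (Cluster-20417.116253), an enzyme of suberin aromatics in Arabidopsis. It was at 0, 5.11 and 22.0 FPKM in the tubes and 4.73, 58.6 and 199 FPKM in the lobes, with log2 fold changes of -3.44 and -3.69. Aldehyde decarbonylases of wax alkane synthesis were found on each side. GL1-5 (Cluster-20417.237837) was at 471, 1750 and 2760 FPKM in the tubes and 1490, 2860 and 4240 FPKM in the lobes. In contrast, GL1-5 of another cluster (Cluster-20417.240900) was at 2.92, 15.1 and 40.9 FPKM in the tubes and 0, 0.427 and 1.46 FPKM in the lobes, without overlap, and had log2 fold changes of 4.36 and 4.95 ± 0.197 (SE, n = 20, adjusted p = 3.39e-21). Of 38 lipid-transfer proteins, which bind lipids outside the cell, 9 were higher and 8 lower (10 and 8 without ‘City of Haarlem’ flower 3).

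Genes of stomatal patterning were also divided. Of 22 ERECTA and epidermal patterning unigenes, 7 were higher and 2 lower (6 and 2 without ‘City of Haarlem’ flower 3), with a median of -0.01. EPFL9 (Cluster-20417.257496), a signal that promotes stomata in Arabidopsis, was at 0, 0.69 and 10.3 FPKM in the tubes and 0, 0.107 and 2.23 FPKM in the lobes. The CO2-response secreted protease (Cluster-20417.207885), which acts on such signals in Arabidopsis, was at 7.88, 23.2 and 62.6 FPKM in the tubes and 2.82, 10.2 and 27.9 FPKM in the lobes and was higher in the tube of all 21 flowers. The fold change on the log2 scale was 1.05 and 1.08, and 0.81 in the 13 flowers without potyvirus, below the size needed for a call. FAMA (Cluster-20417.189316), a guard cell factor in Arabidopsis, was lower, at 0.08, 0.60 and 1.73 FPKM against 0.925, 1.85 and 2.83 FPKM.

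Among wall genes the pectin-modifying enzymes stood out, with 85 higher and 29 lower of 401 (89 and 30 without ‘City of Haarlem’ flower 3). The most abundant called members were matches to the non-catalytic beta subunit of polygalacturonase. The first (Cluster-20417.236697) was at 0, 2670 and 8930 FPKM in the tubes and 0, 645 and 2100 FPKM in the lobes. It was listed at 0 in every flower of ‘Gipsy Queen’, ‘City of Haarlem’ and ‘Peter Stuyvesant’, so that its log2 fold change of 1.77 (adjusted p = 4.06e-11) rests on the 12 flowers of the other cultivars, all of which were higher in the tube. Pectinesterase 64 (Cluster-20417.265560) was higher in the tube of all 21 flowers, at 3.46, 10.6 and 30.5 FPKM in tubes and 1.55, 4.09 and 9.03 FPKM in lobes. Pectinesterase 1 (Cluster-20417.156842) was lower, at 31.3, 114 and 436 FPKM against 82.3, 249 and 764 FPKM. Beta-galactosidase 11 (Cluster-20417.170596) was at 1.3, 21.5 and 96.6 FPKM in the tubes and 0.355, 2.36 and 26.0 FPKM in the lobes, with log2 fold changes of 1.89 and 1.97.

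Proline-rich wall proteins were among the most abundant lower unigenes. Proline-rich protein 2 (Cluster-20417.227888) was at 20.8, 917 and 2980 FPKM in the tubes and 191, 3260 and 6960 FPKM in the lobes, and it was lower in the tube of all 21 flowers. Its log2 fold change was -2.27 (adjusted p = 1.48e-10) and -2.35 ± 0.151 (SE, n = 20, adjusted p = 7.84e-13). Proline-rich protein 4 (Cluster-20417.236096) was at 42.3, 173 and 581 FPKM in tubes and 122, 487 and 1420 FPKM in lobes. A polygalacturonase inhibitor (Cluster-20417.178093) had the smallest p of all lower unigenes that the rule named over 21 flowers, at 1.06, 4.12 and 64.7 FPKM in tubes and 0.995, 14.1 and 430 FPKM in lobes, with log2 fold changes of -2.02 and -2.07.

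Xyloglucan endotransglucosylases, which loosen and rejoin wall polymers, counted 12 lower and 3 higher of 116 (14 and 4 without ‘City of Haarlem’ flower 3), yet their summed level was higher in the tube of 19 of 20 flowers, at 836, 9250 and 15000 FPKM in tubes and 491, 6550 and 12600 FPKM in lobes. The abundant protein 34 match (Cluster-20417.284517) was at 96.2, 856 and 2030 FPKM in tubes and 19.9, 451 and 822 FPKM in lobes, with log2 fold changes of 1.07 and 1.16. Expansins counted 3 higher and 3 lower of 71, a share of 4.23% each way that lies near that of all unigenes. Lignin and secondary wall genes had 17 higher and 8 lower of 128 (18 and 8 without ‘City of Haarlem’ flower 3), and Dirigent protein 23 (Cluster-20417.240024) was at 1.10, 6.60 and 22.2 FPKM in the tubes and 0.17, 0.863 and 9.46 FPKM in the lobes. Of 94 cellulose synthases, 6 were higher (6.38%) and 3 lower (3.19%), against 3.65% and 3.47% of all unigenes. Those named were below 8 FPKM in tubes, as for CESA7 (Cluster-20417.241686) at 0, 1.41 and 7.59 FPKM.

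**Figure D4:**
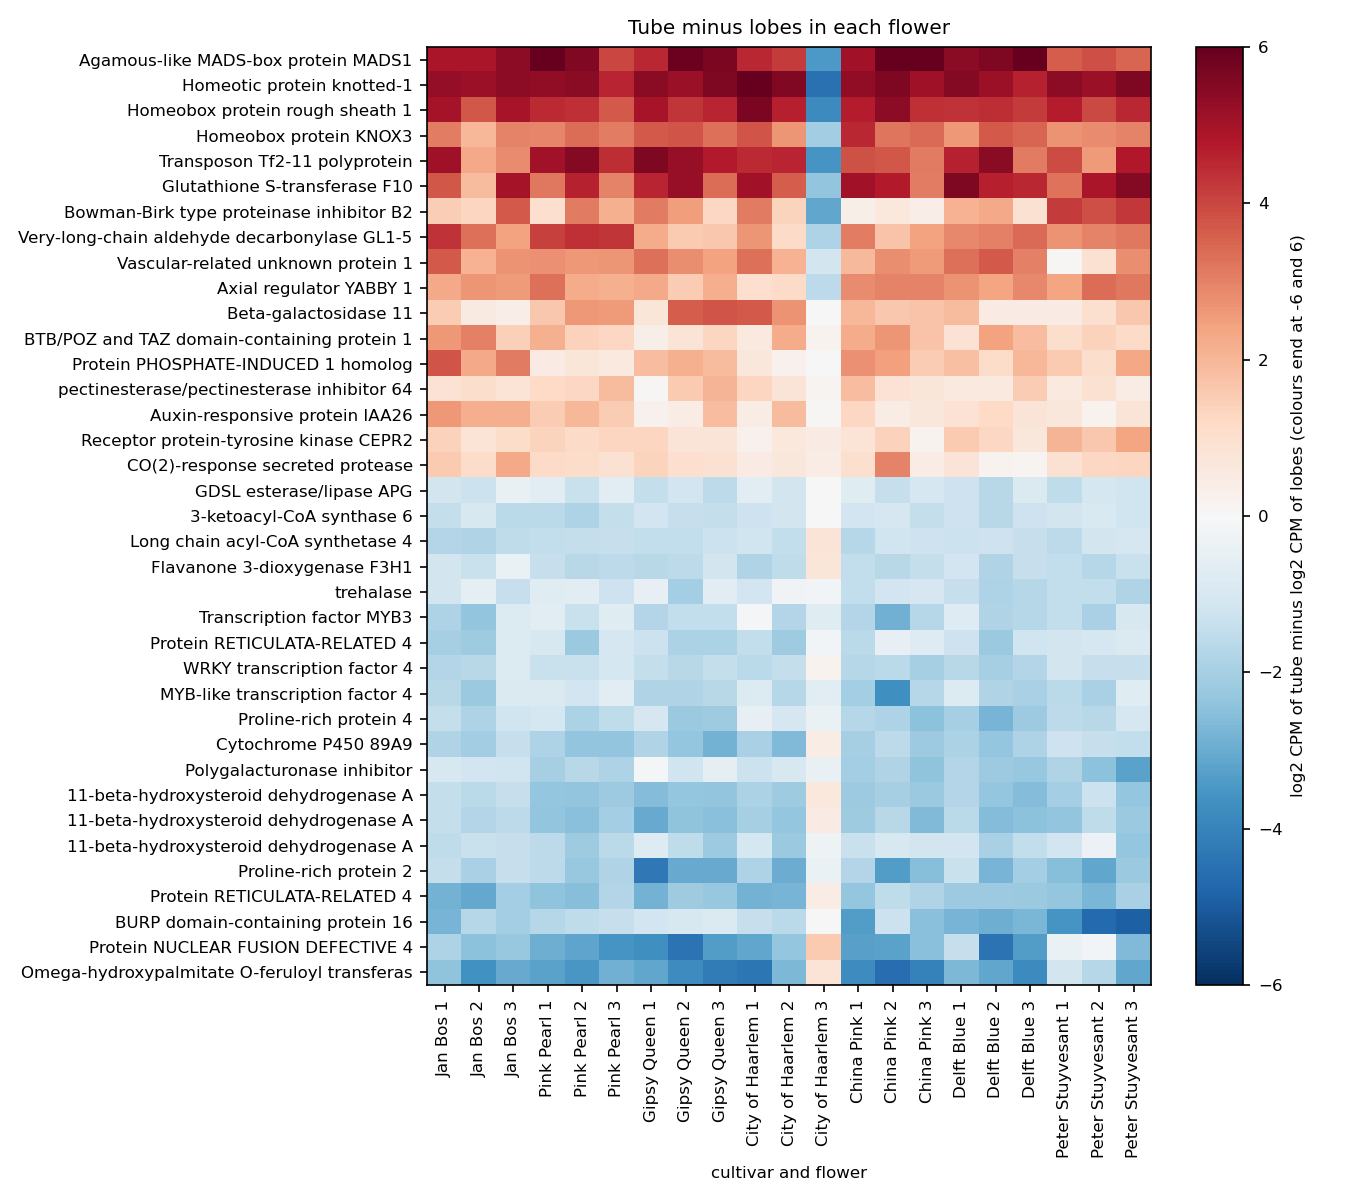
Difference of log2(CPM + 0.5) between tube and lobes in each of 21 flowers for the 37 unigenes with the smallest p and the same direction in all flowers, named over 21 flowers or over 20, in order of log2 fold change without ‘City of Haarlem’ flower 3. Red is higher in the tube and blue lower, and colours end at -6 and 6. The column of ‘City of Haarlem’ flower 3 is blue where its neighbours are dark red.

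Photosystem and light-harvesting genes were somewhat higher in the tube of coloured buds, with 14 higher and 0 lower of 190 (21 and 0 without ‘City of Haarlem’ flower 3) and a median log2 fold change of 0.22. Their summed level was 2050, 9750 and 49300 FPKM in tubes and 1080, 5360 and 35100 FPKM in lobes, and it was higher in the tube of 17 of 20 flowers. Photosystem I subunit III (Cluster-20417.241356) was at 7.11, 29.4 and 455 FPKM in the tubes and 1.23, 12.7 and 335 FPKM in the lobes. On the log2 scale its fold change was 1.04 and 1.14, but 0.93 in the 13 flowers without potyvirus. Chlorophyll breakdown genes had 0 higher and 3 lower of 40 (0 and 2 without ‘City of Haarlem’ flower 3), and pheophorbide a oxygenase (Cluster-20417.252572), which opens the chlorophyll ring, was at 7.27, 18.6 and 34.2 FPKM in the tubes and 18.9, 32.8 and 48.7 FPKM in the lobes. CYP89A9 (Cluster-20417.242976), which oxidises chlorophyll catabolites in Arabidopsis, was at 6.73, 33.2 and 97.0 FPKM in tubes and 19.1, 128 and 252 FPKM in lobes, with log2 fold changes of -1.91 and -2.02. Carotenoid genes counted 11 higher and 3 lower of 91 (13 and 3 without ‘City of Haarlem’ flower 3). Phytoene synthase (Cluster-20417.237130), the entry enzyme of the pathway, was at 7.37, 15.2 and 41.8 FPKM in the tubes and 1.98, 6.76 and 28.7 FPKM in the lobes, and higher in the tube of 20 of 20 flowers.

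Defence proteins were higher for 46 and lower for 18 of 237 (49 and 21 without ‘City of Haarlem’ flower 3), and their summed level was higher in the tube of 20 of 20 flowers, at 18400, 30100 and 45100 FPKM in tubes and 13800, 21000 and 33700 FPKM in lobes. Chitinase 12 (Cluster-20417.169141) ranged widely, at 68.8, 1970 and 17100 FPKM in the tubes and 0.71, 36.1 and 3130 FPKM in the lobes, with log2 fold changes of 4.06 and 4.27 ± 0.467 (SE, n = 20, adjusted p = 2.85e-08). This difference varied among cultivars (adjusted p = 3.73e-05, and 2.82e-11 without ‘City of Haarlem’ flower 3), from 1.36 in ‘Peter Stuyvesant’ to 8.0 in ‘Jan Bos’ on the log2 scale. An endochitinase match (Cluster-20417.242716) was at 62.4, 222 and 767 FPKM in tubes and 18.5, 41.0 and 342 FPKM in lobes. Thaumatin-like protein 1 (Cluster-20417.214383) was lower, at 0.88, 9.89 and 59.5 FPKM against 5.62, 49.9 and 146 FPKM. A proteinase inhibitor of hyacinth itself, Bowman-Birk inhibitor B2 (Cluster-20417.225160), was at 0.36, 4.73 and 59.2 FPKM in the tubes and 0, 0.0725 and 2.46 FPKM in the lobes.

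Auxin genes were split, with 39 higher and 37 lower of 375 (42 and 42 without ‘City of Haarlem’ flower 3). IAA26 (Cluster-20417.216863), an auxin response repressor, was higher in the tube of all 21 flowers at 5.71, 22.0 and 46.2 FPKM in tubes and 2.65, 7.58 and 26.9 FPKM in lobes. Auxin response factor 2 (Cluster-20417.203377) was at 15.6, 30.4 and 48.6 FPKM in tubes and 3.50, 10.4 and 20.9 FPKM in lobes, and auxin response factor 18 (Cluster-20417.214268) the reverse, at 13.9, 26.5 and 42.7 FPKM against 26.0, 49.4 and 69.9 FPKM. Gibberellin metabolism and GASA genes had 14 higher and 1 lower of 85 (16 and 2 without ‘City of Haarlem’ flower 3), with Snakin-2 (Cluster-20417.180147) at a median of 5.93 FPKM in tubes and 0.78 FPKM in lobes. Ethylene genes had 5 higher and 7 lower of 113 (7 and 7 without ‘City of Haarlem’ flower 3). These were 4.42% and 6.19%, against 3.65% and 3.47% of all unigenes. CEPR2 (Cluster-20417.256786), a receptor for C-terminally encoded peptides in Arabidopsis, had the smallest p of the 7 unigenes higher in all 21 flowers that met the naming rule, at 5.81, 15.5 and 31.5 FPKM in tubes and 2.62, 6.76 and 10.1 FPKM in lobes, with log2 fold changes of 1.18 and 1.22 ± 0.116 (SE, n = 20, adjusted p = 2.05e-09).

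In transport, 11 of 100 aquaporins were higher and 5 lower (11 and 6 without ‘City of Haarlem’ flower 3). NIP5-1 (Cluster-20417.211511), a boric acid channel in Arabidopsis, was at 80.1, 202 and 301 FPKM in the tubes and 21.9, 55.7 and 127 FPKM in the lobes, with log2 fold changes of 1.41 and 1.50. Sugar transport and cleavage had 15 higher and 11 lower of 203 (19 and 13 without ‘City of Haarlem’ flower 3). These were 7.39% and 5.42%, against 3.65% and 3.47% of all unigenes. SWEET5 (Cluster-20417.160150) was between 0.50 and 906 FPKM in tubes and at 0.42, 25.6 and 104 FPKM in lobes, whereas the monosaccharide importer MST5 (Cluster-20417.209977) was at 2.08, 16.3 and 133 FPKM against 16.7, 67.5 and 432 FPKM.

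Benzenoid scent genes and terpene synthases differed in pattern. Of 53 benzenoid scent enzymes 8 were lower and 1 higher (9 and 1 without ‘City of Haarlem’ flower 3), and their summed level was 2190, 8330 and 26900 FPKM in tubes and 2420, 11100 and 68400 FPKM in lobes. A phenylacetaldehyde synthase match (Cluster-20417.331823) ranged from 0 to 4350 FPKM in tubes with a median of 177 FPKM and from 0 to 13700 FPKM in lobes with a median of 627 FPKM, and it was lower in the tube of 15 of 20 flowers. Of 42 terpene synthases 1 was lower and 0 higher, below the shares of all unigenes, and their sum had a median of 14800 FPKM in tubes and 11300 FPKM in lobes, higher in the tube of 11 of 20 flowers. Cell division genes had 13 higher and 6 lower of 197 (18 and 7 without ‘City of Haarlem’ flower 3). The 13 and 6 were 6.6% and 3.05%, against 3.65% and 3.47% of all unigenes.

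Markers of other tissues were more often higher than lower in the tube. Of 55 stamen and pollen markers 23 were higher and 2 lower (24 and 2 without ‘City of Haarlem’ flower 3), and their summed level was 773, 1610 and 2650 FPKM in tubes and 688, 1190 and 1640 FPKM in lobes, higher in the tube of 16 of 20 flowers. All 78 annotated members were above 0 in at least 1 library. Pollen-specific protein C13 (Cluster-20417.266095) was at 1.03, 121 and 915 FPKM in tubes and 1.19, 28.7 and 114 FPKM in lobes. Only 2 pistil and ovule markers were tested, of which 1 was higher and 0 lower. The higher one, STIG1 (Cluster-20417.104026), a stigma protein, was at 0.69, 19.0 and 53.2 FPKM in tubes and 0, 0.122 and 0.93 FPKM in lobes, with log2 fold changes of 5.18 and 6.12. The sum of the list was higher in the tube of 18 of 20 flowers. In ‘Peter Stuyvesant’ it averaged 1.18 FPKM in tubes and 1.74 FPKM in lobes. In bulk tissue, more cells of a type and more RNA per cell cannot be told apart, and the part of these tissues in the KNOX and AGAMOUS differences was not tested.

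Potyvirus matches exceeded 1000 FPKM in 8 flowers: 3 of ‘Gipsy Queen’, 2 of ‘Jan Bos’ and 1 each of ‘Pink Pearl’, ‘China Pink’ and ‘City of Haarlem’. In these flowers they took 0.00975% to 0.648% of counts in tube libraries, with a median of 0.421%, and medians of 3.73% in outer and 3.04% in inner lobes, up to 10.2%. In 7 of these 8 flowers the tube was below the mean of the lobes. In ‘City of Haarlem’ flower 3, the library labelled tube held 0.648%, inner lobes 0.371% and the library labelled outer lobes 0.00318%. Of 18 potyvirus unigenes tested, 17 were lower in the tube over 21 flowers and 18 without that flower. Of 572 arthropod matches 170 were lower and 3 higher over 21 flowers, and 263 and 3 without ‘City of Haarlem’ flower 3. They took 0.125% to 0.229% of counts in tubes, with a median of 0.144%, against medians of 0.13% in outer and 0.14% in inner lobes. Their summed FPKM was higher in the tube of 11 of 20 flowers. The highest shares were 0.582% and 1.17%, in outer and inner lobes of ‘Jan Bos’ flower 3. No other lobe library exceeded 0.317%. That flower is among the 8 with potyvirus, so leaving these out removes it too, and a link with the virus was not tested. Without ‘Jan Bos’ flower 3 alone, 4185 of 111674 unigenes were higher in the tube and 3490 lower. The 170 arthropod and 17 potyvirus matches are among the 3937 lower unigenes of the main fit. In the 13 flowers without potyvirus 23 of 306 arthropod matches were lower. Over those 13 flowers, 4036 of 102438 unigenes were higher in the tube (3.94%) and 3360 lower (3.28%). Of the 4131 higher unigenes 3191 were also called there, and of the 3937 lower ones 2523. The anthocyanin-specific list then had 15 lower and 1 higher, YABBY 6 higher, and the cuticle list 66 lower and 29 higher.

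Whether cultivars shared the tube difference was tested with a term for each cultivar. Over 21 flowers, 1607 unigenes had a difference that varied among cultivars (1.42%), and without ‘City of Haarlem’ flower 3 there were 2895 (2.58%). The count was 394, 178 and 1050 without the flowers numbered 1, 2 and 3, and 5415 with limma-voom. ‘City of Haarlem’ stood apart with 438 higher and 43 lower over 21 flowers. The other cultivars ran from 1194 higher and 1416 lower in ‘Peter Stuyvesant’ to 3713 higher in ‘China Pink’ and 2768 lower in ‘Jan Bos’. In the fit without its flower 3, ‘City of Haarlem’ had 1680 and 1349. The others then ran from 1480 higher and 1708 lower in ‘Peter Stuyvesant’ to 4221 higher in ‘China Pink’ and 3213 lower in ‘Jan Bos’. Of the 4131 unigenes higher in the tube, 1950 had that direction in each of the 7 cultivars when ‘City of Haarlem’ flower 3 was left out, and of the 3937 lower ones 2370 did.

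Over 21 flowers, the unigenes named for the smallest p of a cultivar difference included nitrate and peptide transporter family members. Without ‘City of Haarlem’ flower 3, Chitinase 12 (Cluster-20417.169141, adjusted p = 2.82e-11) and a lipid-transfer protein (Cluster-20417.236614, adjusted p = 2.79e-08) had smaller values than they did. NRT1/PTR 2.11 (Cluster-20417.225871), a glucosinolate importer in Arabidopsis, averaged 119 FPKM in the tubes and 9.67 FPKM in the lobes of ‘Gipsy Queen’, but 8.37 FPKM in tubes and 68.8 FPKM in lobes of ‘Peter Stuyvesant’ (n = 3 each). Its log2 fold change was 3.43 in the first and -3.18 in the second, and the ranges of tube and lobes did not overlap in either. The adjusted p of the cultivar term was 1.06e-06 over 21 flowers and 1.63e-07 over 20. NRT1/PTR 2.10 (Cluster-20417.180763) had 3.27 in ‘Gipsy Queen’ and -3.11 in ‘Peter Stuyvesant’. An acetyltransferase match (Cluster-20417.237561) had -2.72 in ‘China Pink’ and 2.84 in ‘Peter Stuyvesant’, with mean levels of 3.16 against 18.2 FPKM and 15.4 against 2.34 FPKM in tube and lobes. A resveratrol methyltransferase match (Cluster-20417.251435) had 3.45 in ‘Jan Bos’, at 11.8 FPKM in tubes and 0.94 FPKM in lobes, and -0.69 in ‘Peter Stuyvesant’.

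The same comparison in green buds (Stage B) and open flowers (Stage A) gave fewer calls than Stage C in green buds and more in open flowers. In a fit of all 63 flowers and 167352 unigenes, 3031 were higher and 4165 lower in tubes of Stage B. The counts were 4880 and 5368 for Stage C, and 9810 and 9535 for Stage A. At Stage C the difference of tube and lobes was above that of Stage B for 4745 unigenes (2.84%) and below it for 2048 (1.22%). Against Stage A it was above for 1004 (0.600%) and below for 1955 (1.17%). These 2959 became 1279 and 1510 without the flowers numbered 1 and 3, and 5034 with limma-voom, and the 6793 for Stage B became 4192 without those numbered 2. Without ‘City of Haarlem’ flower 3 of Stage C the counts were 2822 against Stage A and 7597 against Stage B.

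Photosystem genes showed the turn from green to coloured buds. At Stage B their summed level was 26000, 49900 and 80700 FPKM in tubes and 74400, 120000 and 169000 FPKM in lobes of 21 flowers, with 138 of 222 lower in the tube and 0 higher. At Stage C the sums had fallen to medians of 9610 FPKM in tubes and 5740 FPKM in lobes, with 9 higher and 0 lower. At Stage A the medians were 3400 and 1800 FPKM, and 80 were higher and 3 lower. Of 190 members in the Stage C fit, 120 had a difference above that of Stage B and 0 below, and 38 had one below that of Stage A. Chlorophyll a-b binding protein 6 (Cluster-20417.239468) had log2 fold changes of -1.36, 1.01 and 2.14 at Stages B, C and A. The fall of the sums was uneven: at Stage C they averaged 32900 FPKM in tubes and 22800 FPKM in lobes of ‘Peter Stuyvesant’. The next highest cultivar, ‘Pink Pearl’, had 14900 and 9280 FPKM. In the paper, Stage C of ‘Peter Stuyvesant’ correlated more strongly with its Stage B than with its Stage A.

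Of the other groups, some changed side with stage. The summed level of defence proteins was higher in the tube of 0, 20 and 20 of 21 flowers at Stages B, C and A, that of carotenoid genes of 0, 18 and 3, that of aquaporins of 15, 3 and 0, and that of xyloglucan endotransglucosylases of 15, 20 and 6. YABBY factors had the higher sum in the tube of 21, 20 and 21 flowers. For YABBY factors and defence proteins, the exception at Stage C was ‘City of Haarlem’ flower 3. KNOX3 (Cluster-20417.172509) had log2 fold changes of 8.40, 5.10 and 4.85 at Stages B, C and A, AGAMOUS (Cluster-20417.178664) 2.39, 2.85 and 2.61, and YABBY 2 (Cluster-20417.252290) 0.85, 1.22 and 1.57. The Stage C values include ‘City of Haarlem’ flower 3, and the fit of Stage C alone without it gave 6.25, 3.09 and 1.37. KNOX3 had a lobe median of 0 FPKM at Stage B, so its size there rests on lobe counts near 0. Anthocyanin-specific enzymes summed to medians of 1800 FPKM in tubes and 2110 FPKM in lobes of green buds, 7830 and 15700 FPKM in coloured buds and 6580 and 7880 FPKM in open flowers, and 2, 15 and 8 of 50 were lower in the tube at these stages. Of all 167352 unigenes, 4165, 5368 and 9535 were lower at Stages B, C and A, so the background differs between stages. The feruloyl transferase (Cluster-20417.116253) had -0.10, -3.46 and -4.34 in the same order, with medians of 0 FPKM in tubes and lobes of green buds, and the tube-enriched GL1-5 (Cluster-20417.240900) 0.67, 4.30 and 3.36. Cell division genes were higher in the tube for 66 of 258 at Stage B, against 17 at Stage C. Over all 167352 unigenes the higher counts were 3031 at Stage B and 4880 at Stage C.

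Over all flowers, the unigenes named for the smallest p of Stage C against Stage B were early nodulin-like protein 3 (Cluster-20417.227898), a copper-binding-like wall protein, and histones. Without ‘City of Haarlem’ flower 3, glutathione S-transferase F10 (Cluster-20417.225972) had a smaller value, with an adjusted p of 1.66e-28. Early nodulin-like protein 3 was at 3.24, 28.2 and 57.4 FPKM in the tubes and 0.065, 0.748 and 10.1 FPKM in the lobes at Stage C. Its log2 fold change was -1.14 at Stage B and 3.48 at Stage C, a difference of 4.63 (adjusted p = 3.09e-19, and 1.13e-25 without ‘City of Haarlem’ flower 3). Histone H2A.2 (Cluster-20417.180491) went from 2.55 at Stage B to -0.32 at Stage C, and was at 2.25, 7.48 and 11.9 FPKM in tubes and 2.36, 7.91 and 16.0 FPKM in lobes at Stage C. Against Stage A, cytochrome P450 71B9 (Cluster-20417.245741) had -1.91 in coloured buds but 2.72 in open flowers. A flavonoid 3'-monooxygenase match (Cluster-20417.234456) had 0.90 in coloured buds but -1.18 in open flowers.

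**Figure D5:**
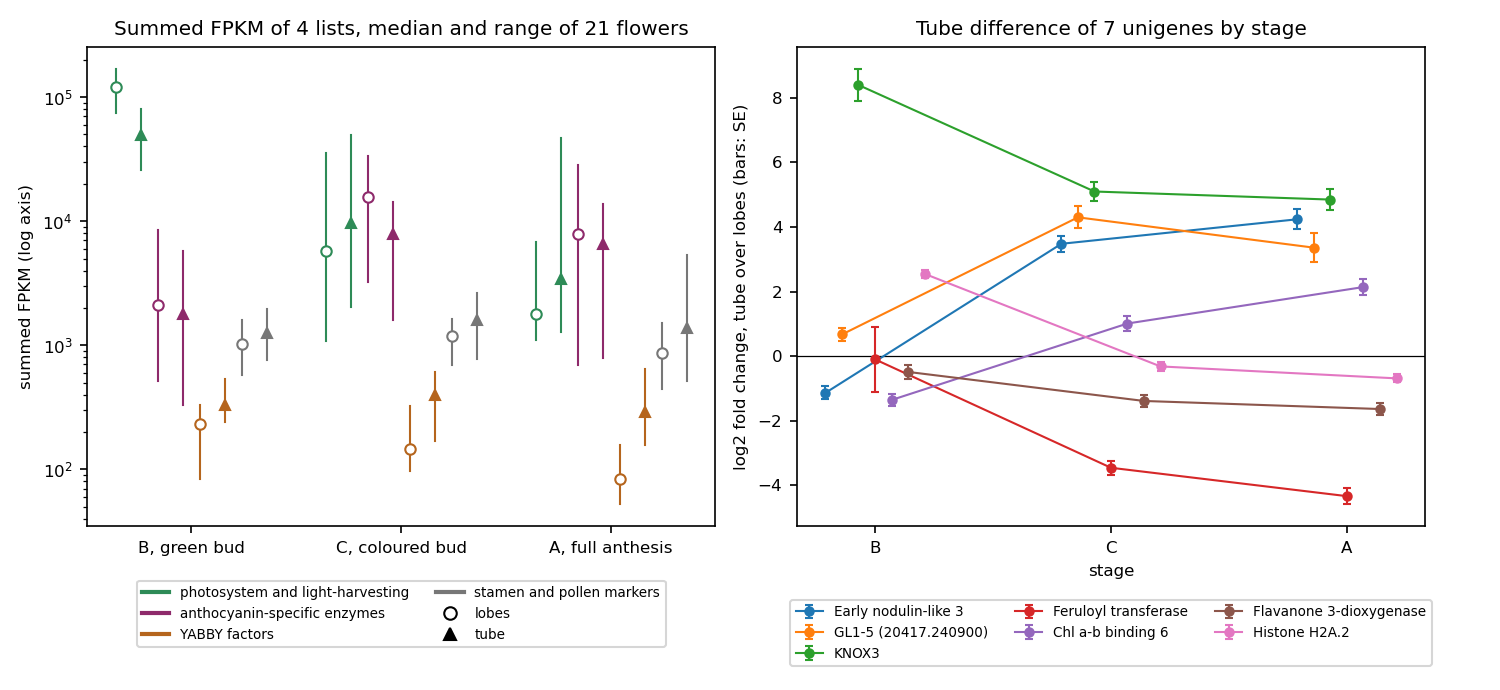
Left, summed FPKM of 4 gene lists on a log axis in lobes (open circles) and tube (triangles) at Stages B, C and A, as the median with the range of 21 flowers. Right, log2 fold change of tube over lobes with its SE for 7 unigenes in the fit of 63 flowers. Photosystem sums have a median of 120000 FPKM in lobes at Stage B and 5740 FPKM at Stage C.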

How the data were processed

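RNA from 63 Stage C libraries was analysed, and 63 each of Stages B and A served for the stage comparison. The authors sequenced poly-A RNA, assembled it with Trinity and CORSET, aligned it with Bowtie and counted it with RSEM, with versions not given in the sources used here. For each unigene the authors deposited RSEM's expected counts, not normalised, and FPKM. A deposited table of counts of read pairs gives the reads behind each library, and unigene lengths in bases were deposited with the annotation. Swiss-Prot matches exist for 98561 of 494326 unigenes.

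Expected counts were rounded, and counts of outer and inner lobes were summed per flower. A unigene was tested where 3 or more of 63 libraries held 10 or more counts, with TMM factors and edgeR 4.0.16 in R 4.3.3 (glmQLFit, glmQLFTest), with the flower as block. The labels' replicate number marks the flower from which the partitions were dissected. Deviations of tube and lobes from their cultivar means correlated within flowers at 0.02 to 0.63 across unigenes (Pearson's r, median 0.39), and each of the 21 tubes correlated best with the lobes of its own flower. Cultivar differences were tested by an F test with 14 residual degrees of freedom, and stages by contrasts of tube effects. Alternatives used DESeq2 1.42.0, limma 3.58.1, other filters, scalings and blocks, and samples left out. Chosen after seeing the data were the fits without ‘City of Haarlem’ flower 3, without the 8 flowers with potyvirus, without ‘Jan Bos’ flower 3 and with edgeR's estimateDisp. The fit was also run on simulated counts with known changes, at a single fixed dispersion and with the same fold in every flower. That run held no cultivar differences and no flower like ‘City of Haarlem’ flower 3, so it cannot speak to either.

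The members, gene lists and tests were chosen with earlier results of these data known. Lists were made from words in the best Swiss-Prot match, and class I KNOX matches were grouped after their values were seen. Named unigenes were the 10 higher and 10 lower with the smallest p, the same direction in all flowers and a mean of at least 10 FPKM, 1 for each Swiss-Prot entry (only 7 higher ones met this over 21 flowers, so the rule was repeated without ‘City of Haarlem’ flower 3), up to 2 called members per list and direction by FPKM, and the smallest p for cultivar and stage differences. Precision is limited by 3 flowers per cultivar. Figures were drawn with matplotlib 3.10.9.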

Additional observations from a re-analysis of the deposited data

Results flagged for a closer look

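The following unigenes had a tube difference that varied between cultivars or stages by a test of that difference (edgeR quasi-likelihood test, Benjamini-Hochberg). Among cultivars the adjusted p was 1.06e-06 for NRT1/PTR 2.11, 3.49e-06 for NRT1/PTR 2.10, 3.49e-06 for the acetyltransferase match and 3.49e-06 for the resveratrol methyltransferase match. Without ‘City of Haarlem’ flower 3 these were 1.63e-07, 7.12e-07, 1.69e-07 and 1.24e-06.

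Between Stage C and Stage B, the log2 fold change of tube over lobes differed by 4.63 and 4.41 for the early nodulin-like protein 3 matches (Cluster-20417.227898 and Cluster-20417.189897), by -2.86 for histone H2A.2 (Cluster-20417.180491) and by -2.19 for the histone H4 match (Cluster-20417.252221). The H4 match was not called at Stage C, with a log2 fold change of -0.41.

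Between Stage C and Stage A it differed by 2.09 for the flavonoid 3'-monooxygenase match (Cluster-20417.234456), by 1.02 for aquaporin TIP1-1 (Cluster-20417.237154), by -3.75 for cytochrome P450 736A117 (Cluster-20417.197905) and by -4.63 for cytochrome P450 71B9 (Cluster-20417.245741). The 2 cytochromes were low at Stage C, with tube medians of 0.66 and 0.70 FPKM.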

How the results depend on the processing

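Over 21 flowers 4131 unigenes were higher and 3937 lower in the tube. With no replicate block for the flower these were 2469 and 1602, with limma on log2(FPKM + 1) 1217 and 538, and with filterByExpr 1985 and 1454. Lower unigenes numbered 2367 with DESeq2, 2136 with limma-voom and 7266 with no filter. Leaving out a replicate number gave 3244 to 4300 higher and 2739 to 3738 lower. The share of calls that were higher was 51.2%, and 63.1% with DESeq2, 66.4% with limma-voom, 61.8% against outer lobes only, 69.3% with limma on log2(FPKM + 1) and 38.9% with no filter. All other alternatives for these counts stayed within 1.5 times. Of 159 named calls 96 were kept with limma on log2(FPKM + 1), 110 without the block, 136 with DESeq2 and 138 with limma-voom, where Bet v 1-L reached 0.24 and pollen receptor-like kinase 1 reached 0.04 in place of -1.87 and -2.07, and the cause was not tested. Cultivar differences numbered 1607, 5415 with limma-voom, 2895 without ‘City of Haarlem’ flower 3 and 178 to 1050 without a replicate number (178 without flowers numbered 2, 394 without those numbered 1). Against Stage A, 2959 unigenes differed, 5034 with limma-voom and 1279 to 2159 without a replicate number. Against Stage B the 6793 became 4192 to 5420. Tests at low counts are limited by depth.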
